A study of Mus musculus with 19 samples.

Results

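Tail fibroblasts are the connective tissue cells that grew out of adult mouse tail in culture, and they are set here against fibroblasts cultured from 6 other organs. The tail samples were found by their tissue label, and there are 3 of them among 19 samples in all. The other groups are gonad, heart, liver and lung with 3 samples each and kidney and skin with 2 each. Every group is labelled as adult mouse tissue, from animals 8 to 10 weeks old, and no genotype, strain, sex or treatment sets the groups apart in the labels. Pieces of 2 to 3 mm were treated for 40 min at 37 °C with trypsin (0.05%) or collagenase (0.5 mg/mL), and cells were grown for 5 days in medium with 10% serum. The cells are therefore unsorted outgrowths, and a lower level in such a bulk sample can mean fewer cells of a type or less RNA per cell, which cannot be told apart. RNA was hybridised to 1-colour expression arrays, and 18 arrays had scanner output here (3 tail arrays and 15 others, lung 2 being absent). The labels do not tie replicates to animals. P-values here thus reflect the spread between cultures or arrays, which may be technical, and the small number of arrays limits their precision.

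Fibroblasts keep a memory of where in the body they came from, carried largely by Hox genes. These homeobox transcription factors lie in 4 clusters, and genes of higher group number are used closer to the tail end of the embryo. The tail is a string of vertebrae moved by long tendons under hairy skin, so its connective tissue descends from the segmented mesoderm beside the neural tube. Internal organs instead take their fibroblasts from visceral mesoderm and from mesothelium, the cell sheet that lines body cavities. Tendon is built by fibroblasts that lay down collagen I with thrombospondins, COMP and small leucine-rich proteoglycans.

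The tail list holds Hoxb13, the last gene of the Hoxb cluster, and Thbs4, Cilp and Comp, which encode matrix proteins of tendon and cartilage. These 4 genes were chosen with earlier results of these arrays known, so their level in tail describes it and does not check the label. The promoters of 3 genes that led the results, Thbs4, Cilp and the tendon gene Tnmd, are shown because these genes were high on the same 3 arrays. Other leading genes were high there too, but no promoter entry was found for Hoxb13, Comp, Prg4 or Hoxc13. Sequences are RefSeq's for GRCm38.p6, from 250 bases before to 50 bases after each gene's start, and run 5′ to 3′ along the gene's own strand. Capitals mark the E-box CANNTG, the motif bound by basic helix-loop-helix factors such as the tendon regulator scleraxis. CANNTG reads the same on both strands, so 1 strand was searched, and matches were allowed to overlap.
Thbs4, chr13:92794769-92795068, minus strand: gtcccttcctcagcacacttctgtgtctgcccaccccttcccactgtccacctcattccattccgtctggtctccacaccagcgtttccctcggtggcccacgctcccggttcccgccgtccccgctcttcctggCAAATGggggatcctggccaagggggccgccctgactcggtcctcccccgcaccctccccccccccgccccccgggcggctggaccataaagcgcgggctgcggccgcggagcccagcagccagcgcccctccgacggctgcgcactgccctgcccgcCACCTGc
Cilp, chr9:65264930-65265229, plus strand: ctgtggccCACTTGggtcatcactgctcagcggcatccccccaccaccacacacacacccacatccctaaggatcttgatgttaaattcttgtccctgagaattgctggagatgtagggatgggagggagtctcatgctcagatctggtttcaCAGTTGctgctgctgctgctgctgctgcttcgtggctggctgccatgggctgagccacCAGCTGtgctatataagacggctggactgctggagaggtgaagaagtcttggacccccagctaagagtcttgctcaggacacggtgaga
Tnmd, chrX:133850758-133851057, plus strand: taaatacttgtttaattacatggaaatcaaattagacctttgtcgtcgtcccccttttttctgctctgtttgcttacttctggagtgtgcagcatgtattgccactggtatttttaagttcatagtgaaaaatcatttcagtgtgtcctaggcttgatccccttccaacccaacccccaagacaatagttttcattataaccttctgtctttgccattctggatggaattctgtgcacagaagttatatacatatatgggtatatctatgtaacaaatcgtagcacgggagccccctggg
The windows held 2 matches for Thbs4, 3 for Cilp and 0 for Tnmd. Of 32851 mouse promoters of the same length, 72.3% held at least 1 match and 17.6% held 3 or more, so a match is common, and its presence or absence is a description only.

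Signals below are log2 values relative to each array's 75th percentile, so 0 is the level of a fairly bright probe and a step of 1 is a doubling of intensity. A probe's level is not set against that of another probe. Differences are the tail mean minus the average of 6 organ means, each organ counting equally, ± SE from limma. A gene was called at a Benjamini-Hochberg adjusted p under 0.05 with a log2 difference of at least 1. Where some organ, or tail, was not well above background on any of its arrays, the change is given as "at least N-fold". Signals of those arrays were then raised to the lowest measurable signal of the array. Dim arrays of an organ with another array well above background kept their own values. For higher genes N is therefore not a strict lower bound. The all-gene median of the differences was 0.34, against -0.0044 with normexp and quantile normalization and 1.05 with scaling to the median of detected probes. Gene lists are therefore given by their relative median, which is the list's median less that of all genes, and single genes as fitted. List counts are to be set beside the shares over all genes, 4.08% higher and 2.19% lower, which 1 call in a list can come near.

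Control spots that should stay dark read high on 5 of the 18 arrays, which are tail 2, gonad 3, heart 1 and both kidney arrays. Probes well above background made up 75.2%, 84.8% and 71.5% on tail 1, 2 and 3, and 50.1% to 76.9% on the 13 arrays with low dark signal. After centring each gene, tail 1 and tail 3 correlated at 0.671 across genes, which are not independent replicates. Tail 2 correlated at 0.526 with tail 3 and 0.359 with tail 1, and at 0.541 with heart 1, another high-background array. Each of 3 slides held 1 tail array, and each tail array was also compared within its slide.

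The 3 tail arrays differed from the other organs in 1237 of 19721 genes (6.27%), 805 higher (4.08%) and 432 lower (2.19%), by limma. All 3 tail arrays lay above all 15 others in 854 genes (4.33%) and below them in 163 (0.827%). Of the called genes 538 and 144 had this separation. The 805 and 432 genes were all on the same side of the other organs' mean on tail 1 and on tail 3 taken singly, and within each of the 3 slides. They were called from these same tail arrays, so this agreement in direction is largely set by the selection and is no separate check. With tail 1 and tail 3 alone 449 of the 805 and 285 of the 432 were still called, and 804 and 432 kept their direction. Leaving out tail 1 left 345 and 194 of these genes, and leaving out tail 3 left 373 and 221. Among 26206 probes without a gene symbol 171 were higher (0.653%).

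In 81 genes (0.411%) tail was higher than each of the 6 organs in its own test, and in 24 (0.122%) it was lower than each. Against single organs the calls were 533 higher (2.7%) and 529 lower (2.68%) for gonad, and 658 higher (3.34%) and 291 lower (1.48%) for heart. Liver gave 439 higher (2.23%) and 495 lower (2.51%), lung 241 higher (1.22%) and 264 lower (1.34%), and skin 327 higher (1.66%) and 233 lower (1.18%). Kidney, whose arrays are both high-background arrays, gave 7270 higher (36.9%) and 1365 lower (6.92%). Without skin 2 the 81 and 24 genes became 26 and 6, and without heart 1 they became 153 and 69.

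Thbs4, which encodes thrombospondin 4 of tendon and muscle matrix, had signals of 7.79, 7.39 and 7.81 on tail 1, 2 and 3, against a lowest of -7.22, a median of -5.42 and a highest of -1.38 on the other 15 arrays. The groups do not overlap, and lung 1 came closest. Thbs4 was at least 4378-fold higher in tail (adjusted p = 4.3e-06), with 5 of the 15 other arrays well above background. Lack of overlap was part of the rule that chose the 20 leading higher and 12 leading lower genes, so for them it is no finding.

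**Figure D1:**
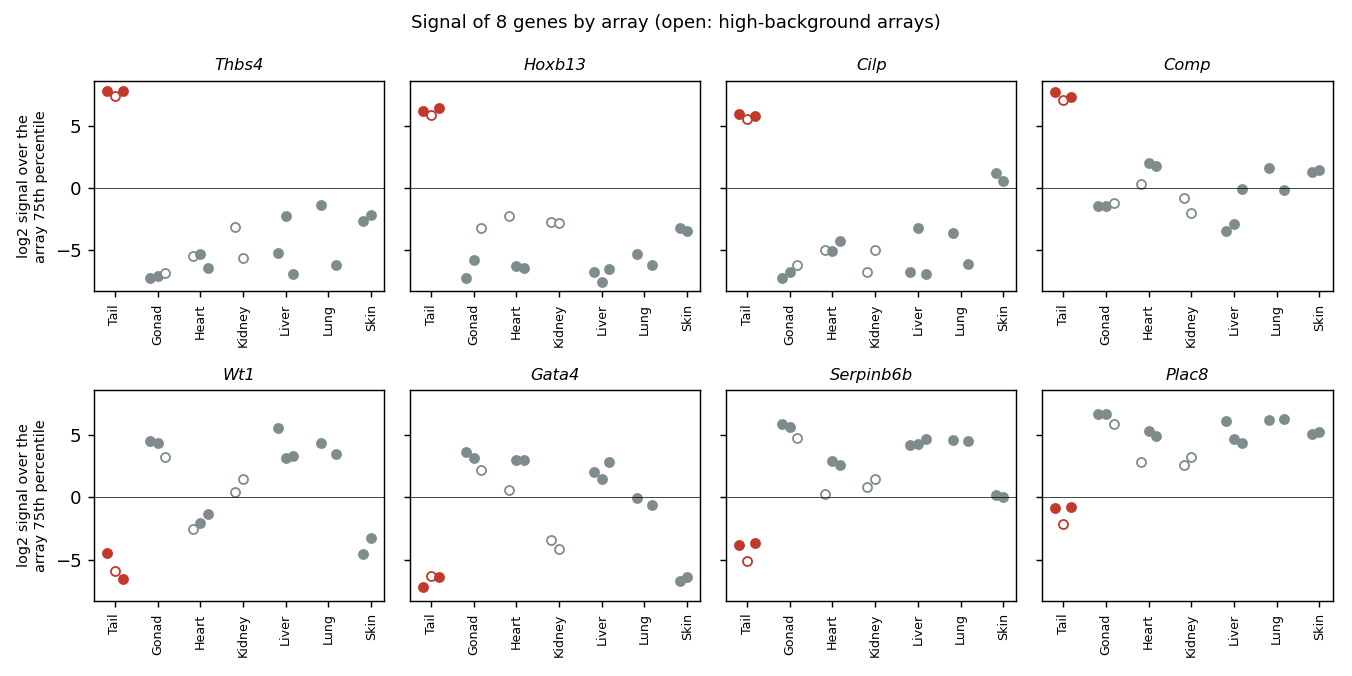
Signal of 8 genes by array, in log2 relative to each array's 75th percentile (y axis), for tail (red, left) and 6 other organs (grey); each point is 1 array and open points are the 5 high-background arrays. Thbs4, Hoxb13, Cilp and Comp in the upper row lie above all other arrays on the 3 tail arrays, and in the lower row Serpinb6b and Plac8 lie below them, while skin 1 for Wt1 and both skin arrays for Gata4 lie within the tail range.

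Cilp, the cartilage intermediate layer protein, read 5.93, 5.52 and 5.80 in tail, against -7.20, -5.05 and 1.18 as the lowest, median and highest of the others. Both skin arrays lie nearest to tail. The change was at least 1025-fold (adjusted p = 2.3e-06), and against skin alone the log2 difference was 4.86 (adjusted p = 0.015). Comp, a pentameric matrix protein that binds collagen, stood at 7.73, 7.09 and 7.27 in tail, against -3.48, -0.15 and 2.01 elsewhere. Its log2 difference was 7.60 ± 0.59 (adjusted p = 6.9e-06), and no other array reached the tail level. Prg4, the joint lubricant lubricin, gave 3.68, 3.82 and 4.03 in tail, against -6.19, -3.77 and -0.11 in the others. That difference was 6.90 ± 0.72 on the log2 scale (adjusted p = 5.2e-05) and missed the threshold against skin alone (log2 4.11, adjusted p = 0.051). Abi3bp, a matrix protein that binds collagen, was higher by log2 7.19 ± 0.83 (adjusted p = 1.1e-04) without overlap.

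Hoxb13 was the regulator with the greatest difference. Its signals were 6.14, 5.89 and 6.40 in tail, against -7.51, -5.79 and -2.28 in the others. The groups do not overlap, and the closest array, heart 1, is a high-background array. Tail was at least 1794-fold higher (adjusted p = 4.3e-06). Zic1, a zinc finger factor of the dorsal somite and neural tube, read 3.12, 2.78 and 2.85 in tail, against -7.26, -3.59 and -0.98. It was higher by log2 6.52 ± 0.77 (adjusted p = 1.3e-04) and passed against each of the 6 organs.

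Secreted signals and hormone genes made up another share of the leading 20. Sfrp2, a secreted Wnt modulator, read 6.94, 6.86 and 6.86 in tail, against -6.89, -0.12 and 3.87 elsewhere, and gonad 1 was the nearest array. The log2 difference was 7.37 ± 0.80 (adjusted p = 7.2e-05), and the test against gonad alone did not pass. Penk, which encodes the enkephalin opioid peptides, was at 4.64, 4.37 and 4.58 in tail and at -5.89, -2.74 and 1.11 in the others. It was higher by log2 6.71 ± 0.56 (adjusted p = 9.4e-06) with no overlap. Dkk2, another secreted Wnt modulator, rose by log2 5.82 ± 0.49 (adjusted p = 9.4e-06), and Fgf5, the growth factor that ends hair growth, by 5.59 ± 1.06 (adjusted p = 0.0048).

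Enzymes and receptors were among them too. Car3, a carbonic anhydrase abundant in fat and slow muscle, read 4.69, 5.71 and 4.25 in tail, against -7.01, -6.04 and -1.90 in the others. It was at least 782-fold higher (adjusted p = 1.6e-05), and here tail 2 was the highest of the tail arrays. Dio3, the deiodinase that inactivates thyroid hormone, gave 4.81, 4.26 and 4.48, against -4.24, -2.11 and 1.16 (log2 6.02 ± 0.51, adjusted p = 1.1e-05). Lgr5, a receptor for R-spondins, was at least 68.8-fold higher (adjusted p = 6.8e-05) and Npy6r, a neuropeptide Y receptor, at least 40.2-fold (adjusted p = 8.7e-06). Ddx4, the germ cell RNA helicase, was at least 45.9-fold higher (adjusted p = 2.7e-06) at tail signals of 1.16, 0.82 and 0.66. All 3 receptor and helicase genes had tail arrays above every other array, as the rule that chose the leading genes required. The remaining leaders were Pcp4l1 (log2 7.13 ± 0.46), Gas2 (5.91 ± 0.34), which binds actin, and Klhl1 (5.88 ± 0.57).

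**Figure D2:**
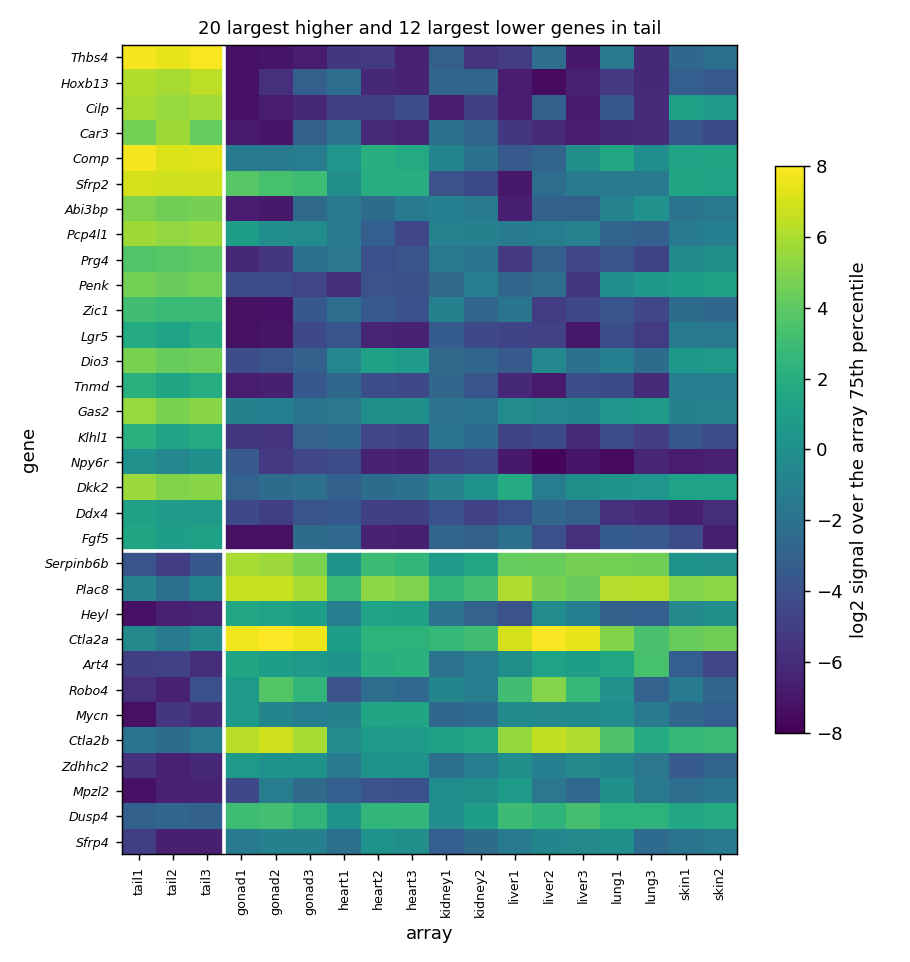
Signal of the 20 largest higher genes (above the white line) and the 12 largest lower genes (below it) on all 18 arrays, tail left of the vertical white line; colour is log2 signal relative to each array's 75th percentile. In every row the 3 tail arrays lie beyond the 15 others, which is part of the rule that chose these genes, and the levels of the others differ by organ, as for Ctla2a, high in gonad and liver.

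Among the lower genes without overlap, Serpinb6b had the greatest difference. Serpinb6b, a serpin that inhibits serine proteases, read -3.83, -5.08 and -3.62 in tail, against 0.07, 4.22 and 5.88 as the lowest, median and highest of the others. The groups do not overlap, with skin nearest, and the difference was log2 -7.13 ± 0.48 (adjusted p = 2.3e-06). Plac8, a small cysteine-rich protein of placenta and blood cells, gave -0.88, -2.15 and -0.79 in tail and 2.57, 5.26 and 6.68 elsewhere. It fell by 6.30 ± 0.50 on the log2 scale (adjusted p = 7.0e-06), again without overlap. Ctla2a and Ctla2b, related cysteine protease inhibitors whose near-identical sequences may share signal, had log2 differences of -5.50 ± 0.38 and -5.14 ± 0.38.

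Regulators and receptors were also among these 12 genes. Heyl, a Notch target and repressor, was at least 24.7-fold lower (adjusted p = 8.0e-05), and Mycn, a Myc family growth regulator, at least 23.4-fold lower (adjusted p = 5.2e-05). Dusp4, a phosphatase that turns off MAP kinases, read -3.04, -2.72 and -3.02 in tail, against -0.13, 2.38 and 3.29 in the others. It was lower by log2 -4.91 ± 0.43 (adjusted p = 1.3e-05), without overlap and against each organ. Sfrp4, a Wnt antagonist related to Sfrp2, was at least 13.6-fold lower (adjusted p = 1.0e-04), so this pair of relatives moved in opposite directions. Robo4, an endothelial guidance receptor, was at least 25.3-fold lower (adjusted p = 6.9e-04), and the tests against heart, lung and skin alone did not pass.

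Hox genes divided by position in the cluster. Of 14 measured genes of groups 9 to 13, 6 were higher and 0 lower, with a relative median of 1.62. Groups 5 to 8 had 0 of 10 higher and 1 lower (relative median -0.47), and groups 1 to 4 had 0 of 12 higher and 2 lower (relative median -1.14). At an unadjusted p under 0.05, limma gave 1 lower gene in groups 9 to 13, 1 higher in groups 5 to 8 and 0 higher in groups 1 to 4. These medians kept their sign under each of 35 alternative settings, and the signs on tail 1 and tail 3 singly were the same. For groups 5 to 8 the median came as near 0 as -0.035, with the dark control signal as a covariate. Within slides 1, 2 and 3 it was -0.32, -0.64 and 0.31, so its sign was not kept on slide 3. The medians of the other 2 sets of groups kept their sign within each slide. The posterior count was 4 higher whichever tail array was left out, and that of lower genes in groups 1 to 4 was then 1.

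**Figure D3:**
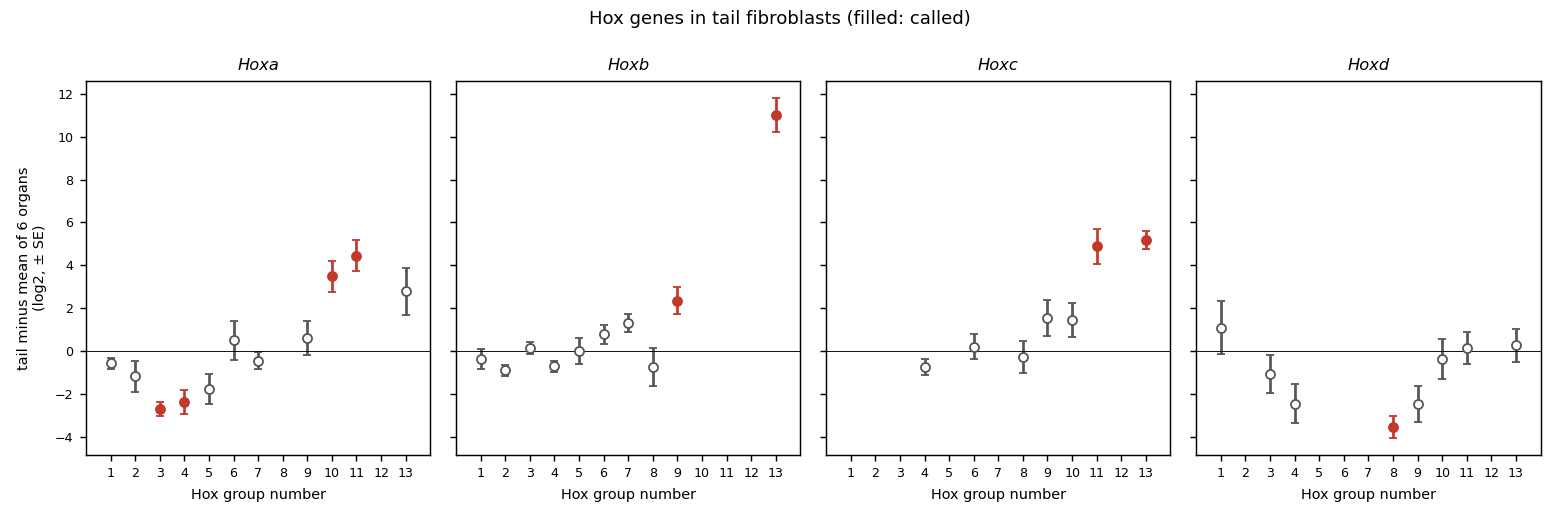
Log2 difference of tail from the mean of 6 organs ± SE (y axis) for each measured Hox gene by group number (x axis), 1 panel per cluster; filled red points were called. Hoxb13 stands highest, Hoxc11 and Hoxc13 near 5, while groups 9 to 13 of the Hoxd cluster hold no called gene.

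After Hoxb13, Hoxc13, a regulator of hair and nail keratins, was the next. It read 2.92, 2.75 and 3.09 in tail, against -4.55, -2.18 and 0.32 in the others, and was higher by log2 5.17 ± 0.43 (adjusted p = 9.4e-06). No other array overlapped, and it passed against every organ. Hoxc11 was at least 27.9-fold higher (adjusted p = 0.0019) and Hoxa11 at least 20.6-fold (adjusted p = 0.0017), both without overlap and both short of the threshold against kidney and skin alone. Hoxa10 was at least 9.57-fold higher (adjusted p = 0.0097) and Hoxb9 higher by log2 2.35 ± 0.62 (adjusted p = 0.037). Hoxb9 read 1.72, 0.43 and 2.03 in tail, and both skin arrays (2.79 and 2.99) and kidney 2 (2.22) lay above these. Hoxa10 and Hoxb9 lost the call when any 1 tail array was left out, and Hoxb9 also with normexp and with the slide as a block.

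Posterior genes were not raised as a block. Hoxd9, Hoxd10, Hoxd11 and Hoxd13 had differences of -2.46, -0.35, 0.14 and 0.27, none called (adjusted p from 0.12 to 0.94). Hoxa13 had tail signals of 0.04, -0.19 and -0.25, against -6.52, -4.08 and 0.55, the highest being heart 1. Its difference of 2.79 ± 1.11 did not pass (adjusted p = 0.20), and it was called once heart 1 or gonad 3 was left out. Hoxa9, Hoxc9 and Hoxc10 did not pass either (0.62, 1.56 and 1.46). For Hoxc9 both skin arrays (3.76 and 4.18), all gonad arrays and kidney 2 lay above all tail arrays, of which the highest read 0.69. For Hoxc10 both kidney arrays (2.20 and 2.72), heart 1 and gonad 3 lay above all tail arrays. The 2 lower anterior genes were Hoxa3, with signals of -1.54, -1.99 and -2.01 in tail, against -4.19, 0.83 and 3.68, and Hoxa4. Hoxa3 differed by log2 -2.70 ± 0.32 (adjusted p = 1.3e-04), being lower than gonad, kidney, liver, lung and skin and higher than heart (log2 1.77). Hoxa4 was lower by log2 -2.36 ± 0.56 (adjusted p = 0.020), a call lost when any 1 tail array was left out, and heart 2 and heart 3 lay below all tail arrays. Hoxd8 was lower by log2 -3.53 ± 0.50 (adjusted p = 5.8e-04), with lung 1 within the tail range.

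The long noncoding RNA Hoxa11os, antisense to Hoxa11 and named after its values were seen, rose beside its partner. It read 3.08, 3.05 and 3.04 in tail, against -5.26, -2.99 and 0.44 in the others, with a difference of log2 5.18 ± 0.75 (adjusted p = 7.2e-04). Of 17 measured caudal and tail bud genes, which drive tail growth in the embryo, 0 were higher and 0 lower by limma (0 and 0 at an unadjusted p under 0.05). Their relative median of 0.03 changed sign under 14 of 35 settings. T, the tail bud regulator brachyury, read -5.64, -3.28 and -3.90 in tail, against -6.89, -4.75 and -1.70 (log2 0.23, adjusted p = 0.92), and the caudal regulators Cdx2 and Cdx4 were well above background on 1 tail array only.

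Of 18 sclerotome and axial genes 4 were higher (Zic1, Meox2, Pax1 and Tbx15) and 1 lower (Foxc2), with a relative median of 0.37, and Foxc2 lost the call without tail 1 or tail 2. Meox2, a homeobox factor of somites, read 4.22, 3.90 and 4.16 in tail, against -7.26, -0.67 and 1.44 (log2 5.15 ± 0.76, adjusted p = 8.1e-04). Pax1, which patterns vertebral bodies, was at 0.29, -0.60 and -0.05, against -7.04, -5.90 and -2.38, and was at least 24.4-fold higher (adjusted p = 2.3e-04). Neither overlaps with the other organs. Tbx15, a factor of dermis and limb skeleton, was higher by log2 2.72 ± 0.48 (adjusted p = 0.0029), with both skin arrays above all tail arrays. Pax9, the partner of Pax1 in sclerotome, had a difference of 2.11 that did not pass (adjusted p = 0.24).

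Of 27 limb and dermal mesenchyme regulators 5 were higher and 0 lower (relative median 0.29, and 8 and 2 at an unadjusted p under 0.05 by limma). Without tail 1, 2 or 3 the higher count was 3, 4 and 3. Prrx2, a homeobox factor of limb and skin mesenchyme, read 6.58, 6.36 and 6.80 in tail, against -0.64, 3.33 and 5.87 (log2 3.07 ± 0.49, adjusted p = 0.0015). Twist1, a helix-loop-helix factor of mesenchyme, differed by log2 1.95 ± 0.29 (adjusted p = 9.1e-04) and Msx2, a homeobox factor of skull and skin, by 1.78 ± 0.38 (adjusted p = 0.010). Msx2 lost the call without tail 1 or without tail 3, and skin 1 lay within the tail range. Prrx1, Msx1 and En1 had differences of 0.49, 0.61 and 0.96 and were not called.

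Visceral mesenchyme regulators had 1 of 25 higher (Hlx, a call lost when any 1 tail array was left out, with liver 2 and liver 3 above all tail arrays) and 5 lower, with a relative median of -0.93. Wt1, the factor of kidney, gonad and mesothelium, read -4.46, -5.88 and -6.52 in tail, against -4.50, 3.20 and 5.59 in the others. Skin 1 lies within the tail range and skin 2, at -3.25, above it, and the difference was log2 -6.80 ± 0.55 (adjusted p = 8.7e-06). Gata4, a zinc finger factor of heart and gonad, gave -7.22, -6.30 and -6.36 in tail, against -6.68, 1.49 and 3.63. It was at least 33.6-fold lower (adjusted p = 7.4e-06), and both skin arrays lie within the tail range. Gata6, its relative in visceral mesoderm, read -1.81, -1.30 and -1.21 in tail, against -0.02, 2.40 and 3.70 (log2 -3.29 ± 0.37, adjusted p = 9.9e-05). Tcf21, a factor of visceral and epicardial fibroblasts, was lower by log2 -3.23 ± 0.51 (adjusted p = 0.0013). Bnc1, a zinc finger factor of mesothelium, was at least 8.21-fold lower (adjusted p = 0.0097), a call lost without tail 1 or tail 3, and heart 2 and heart 3 were at the tail level. For these 5 genes the test of tail against skin alone did not pass.

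Matrix and tendon genes were described by list. Of 19 tendon genes 8 were higher and 1 lower, with a relative median of 1.36. Without tail 1, 2 or 3 the higher count was 5, 6 and 5, and the lower count was 1. Tnmd, which encodes tenomodulin of mature tendon, read 2.16, 1.48 and 1.89 in tail, against -6.84, -4.17 and -1.17. It was higher by log2 5.97 ± 0.68 (adjusted p = 9.4e-05) with no overlap, and the nearest arrays were from skin (log2 3.02 against skin alone, adjusted p = 0.15). Mkx, the tendon homeobox factor mohawk, was higher by log2 2.88 ± 0.50 (adjusted p = 0.0026). Scx, which encodes scleraxis, read 2.03, 2.55 and 2.03 in tail, against -0.92, 1.33 and 3.35, and its difference of 0.97 ± 0.49 did not pass (adjusted p = 0.35). Col14a1, a collagen on fibril surfaces, was higher by log2 2.78 ± 0.46 (adjusted p = 0.0019), but heart 2, heart 3 and liver 3 lay above all tail arrays, at 5.14, 5.38 and 4.86 against a tail range of 4.12 to 4.79. Fmod, the proteoglycan fibromodulin, was higher by log2 3.25 ± 0.77 (adjusted p = 0.019). Fmod lost the call when any 1 tail array was left out and without both kidney arrays. Fibin, a secreted protein known from zebrafish mesoderm, was the lower member, at 0.05, -0.06 and 0.28 in tail, against 1.49, 2.89 and 4.76 (log2 -2.96 ± 0.44, adjusted p = 8.7e-04).

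Cartilage genes had 6 of 32 higher and 1 lower (relative median 0.34). Besides Cilp, Comp and Prg4 these were Col10a1, Matn2 and Trps1, and for Matn2 heart 2 and heart 3 lay above all tail arrays. Col10a1, the collagen of hypertrophic cartilage, differed by log2 2.84 ± 0.63 (adjusted p = 0.014) and lost the call when any 1 tail array was left out. Defining cartilage genes did not pass: Sox9, the master regulator, had signals of -0.35, -0.36 and -0.17 in tail, against -1.88, 0.22 and 3.58 (log2 -0.49, adjusted p = 0.74), Acan differed by -0.31 and Col2a1 by 1.24. Among 20 bone genes 2 were higher and 1 lower, and 1 was higher without tail 1 or tail 3. Bglap2, an osteocalcin gene with near-identical copies that may share its probe, read 0.87, 0.98 and 1.01 in tail, against -3.37, -2.24 and -1.02 (log2 3.21 ± 0.35, adjusted p = 6.9e-05). Tnfrsf11b, the bone resorption inhibitor osteoprotegerin, was lower by log2 -3.15 ± 0.51 (adjusted p = 0.0015), with kidney 1 within the tail range.

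Small leucine-rich proteoglycans, which space collagen fibrils, had 4 of 15 higher and 0 lower (relative median 0.66, and 6 and 0 at an unadjusted p under 0.05 by limma). Without tail 1, 2 or 3 the higher count was 1, 3 and 1. Aspn, which encodes asporin, read 1.49, 0.71 and 1.03 in tail, against -4.11, -2.60 and 0.17, with a difference of log2 3.27 ± 0.42 (adjusted p = 2.8e-04). Collagens split, with 7 of 29 higher and 3 lower around a relative median of 0.08 that changed sign under 14 of 35 settings. The counts were 4 higher and 0 lower without tail 1, 4 and 1 without tail 2, and 5 and 0 without tail 3. Col8a2, a short-chain network collagen, was higher by log2 2.89 ± 0.39 (adjusted p = 3.9e-04) and the fibrillar Col5a3 by 2.35 ± 0.40 (adjusted p = 0.0021), with both skin arrays above all tail arrays for Col5a3. The 3 collagen VI genes Col6a1, Col6a2 and Col6a3 were higher by 2.19, 2.51 and 1.81. All 3 lost the call without both kidney arrays, and kidney 1 had the lowest summed collagen signal. At least 1 other array overlapped with tail for each of them. The basement membrane collagens Col4a1 and Col4a2, named after their values were seen, were lower by -1.90 and -1.66 (adjusted p = 0.019 and 0.025). Both lost the call with scaling to the median of detected probes or when any 1 tail array was left out, and kidney 1 lay below all tail arrays for both. Col1a1 and Col1a2, the main fibroblast collagens, differed by 0.26 and 0.47 and were not called. On tail 1, 2 and 3 Col1a2 read 9.30, 8.95 and 9.47, against 6.07, 9.28 and 9.59 as the lowest, median and highest of the others.

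**Figure D4:**
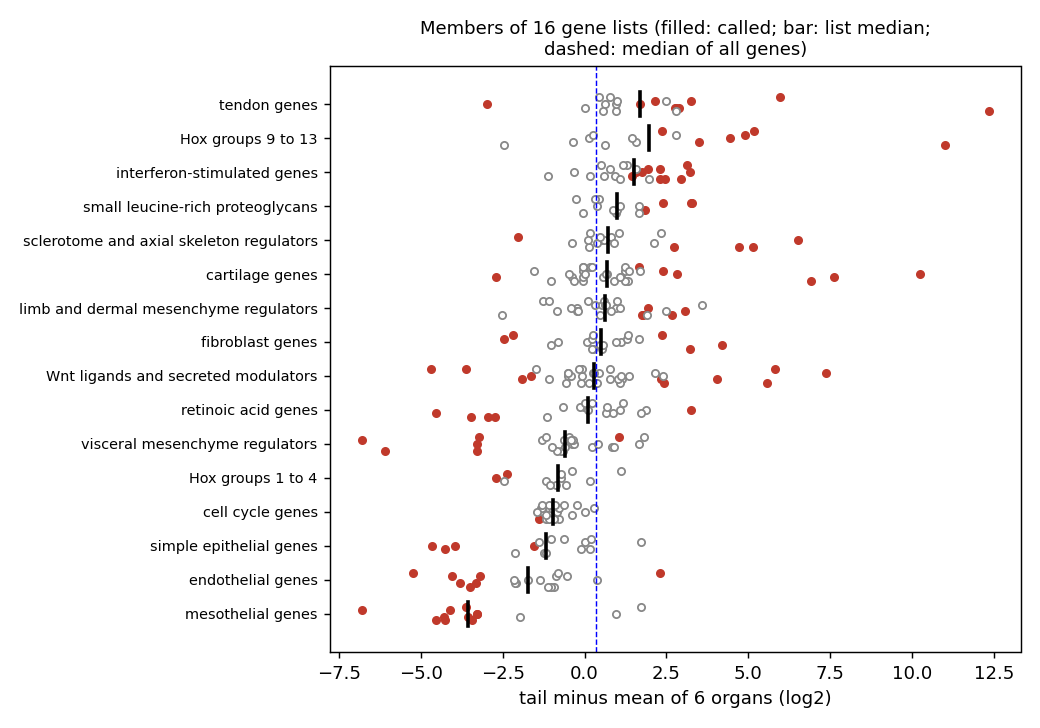
Log2 difference of tail from the mean of 6 organs (x axis) for each measured member of 16 gene lists (rows); filled red points were called, black bars are list medians and the dashed line is the all-gene median of 0.34. Tendon genes and Hox groups 9 to 13 have the rightmost bars, and mesothelial genes, with 10 of 13 members lower, the leftmost.

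Wnt ligands and secreted modulators changed in both directions, with 6 of 35 higher and 4 lower and a relative median of -0.05. The lower count was 2 without tail 1 or tail 3. Wnt signalling is tuned outside the cell by R-spondins, which raise it, and by Sfrp and Dkk proteins, which mostly lower it. Besides Sfrp2 and Dkk2, Rspo2 was higher, at 2.54, 2.25 and 2.47 in tail, against -6.83, -3.58 and 0.39 (log2 5.56 ± 0.84, adjusted p = 9.2e-04). Rspo3, named after its values were seen, read 4.42, 3.59 and 3.95, against -3.65, -0.66 and 3.28 (log2 4.05 ± 0.50, adjusted p = 1.8e-04). Rspo1, likewise chosen, went the other way with -2.87, -2.39 and -2.87 in tail, against -2.05, 1.97 and 3.40 (log2 -3.61 ± 0.34, adjusted p = 2.3e-05). For none of these 3 R-spondin genes did tail overlap with the other arrays.

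Retinoic acid genes had 1 of 19 higher and 4 lower (relative median -0.24, positive under 5 of 35 settings, which include normexp and quantile normalization). Aldh1a2, the main enzyme that makes retinoic acid in mesoderm, read -1.08, -0.43 and -0.28 in tail, against 2.07, 3.70 and 6.39. No array overlapped, and it was lower than in each organ (log2 -4.53 ± 0.46, adjusted p = 4.3e-05). The receptor Rarb, itself a retinoic acid target, was lower by log2 -3.45 ± 0.78 (adjusted p = 0.015). Rarb lost the call when any 1 tail array was left out, and gonad 1 lay within the tail range. Crabp1, which binds retinoic acid in the cell, was higher by log2 3.26 ± 0.52 (adjusted p = 0.0014), though both skin arrays were higher still, at 4.06 and 2.46, against a tail maximum of 2.31.

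Among growth factor lists, insulin-like growth factor genes had 3 of 16 higher and 1 lower (relative median 0.21), but 1 higher and 0 lower when any 1 tail array was left out. Igfbp4, a secreted binding protein that holds IGF, read 5.51, 5.23 and 5.90 in tail, against -2.93, 0.32 and 1.95. It was higher by log2 5.30 ± 0.51 (adjusted p = 2.8e-05), without overlap and against each organ. Igf1 itself was lower by log2 -1.49 ± 0.39 (adjusted p = 0.036), a call lost when any 1 of 12 arrays was left out, all 3 tail arrays among them. Both kidney arrays lay below tail for Igf1, and both skin arrays within the tail range. FGF genes had 3 of 22 higher and 1 lower, with Fgf7, a growth factor for epithelium, up by log2 2.66 ± 0.45 (adjusted p = 0.0022) beside Fgf5. For Fgf7 skin 2 lay within the tail range. The lower FGF gene was Fgf1, whose other probe had a difference of 0.66 that did not pass. Heart 1 and skin 1 lay below all tail arrays for Fgf1. BMP and TGF-beta genes had 3 of 34 higher and 1 lower. Inhbb, an activin subunit, rose by log2 2.81 ± 0.51 (adjusted p = 0.0033), with heart 2 within the tail range. Gdf6, a BMP of joints, was lower by log2 -3.11 ± 0.48 (adjusted p = 0.0011), though skin 2 lay below all tail arrays. Hedgehog genes had 2 of 13 higher and 1 lower (1 higher without tail 1 or tail 3, and 0 lower without any 1 tail array), and Gas1, a co-receptor, was higher by log2 2.83 ± 0.35 (adjusted p = 1.8e-04). Matrix proteases and inhibitors had 2 of 41 higher (4.88%, near the all-gene 4.08%) and 2 lower (4.88%, against 2.19%). The counts were 1 higher without any 1 tail array, and 1 lower without tail 1 or tail 3. Of these genes Adamtsl1, a matrix protein without protease activity, differed most (log2 3.41 ± 0.39, adjusted p = 9.9e-05).

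Interferon-stimulated genes had 10 of 22 higher and 0 lower, with a relative median of 1.16 that kept its sign under 35 settings. Without tail 1, 2 or 3 the higher count was 4, 7 and 5. Ifit3, an antiviral protein of this set, read 3.99, 2.32 and 3.12 in tail, against -2.86, -0.82 and 5.79 in the others. Usp18, which removes ISG15 from proteins, read 2.78, 1.09 and 2.13, against -2.82, -1.64 and 4.84. In both genes heart 2 and heart 3 lay above all tail arrays, as they did for Ifit1 and Igtp, and the differences were log2 3.11 ± 0.53 and 2.93 ± 0.49 (adjusted p = 0.0024 and 0.0019). The list's summed linear signal was 99.96 to 236 on the tail arrays and 18.1 to 958 on the others, the highest being heart 2. Tail 2 was the lowest tail array for Ifit3, Usp18, Ifit1 and Igtp, and the relative median was 2.06, 0.56 and 1.05 on tail 1, 2 and 3.

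Chemokines and cytokines had 5 of 28 higher and 1 lower, and 2, 4 and 2 higher without tail 1, 2 or 3. Tslp, an epithelial cytokine that starts allergic responses, read 2.39, 2.50 and 1.90 in tail, against -3.42, -0.79 and -0.39 (log2 3.75 ± 0.44, adjusted p = 1.2e-04), and passed against each organ. Il6, the acute phase cytokine, read -0.58, -1.49 and -0.75, against 1.27, 3.59 and 4.72, and was lower than in each organ (log2 -4.26 ± 0.52, adjusted p = 1.8e-04). Neither gene overlaps with the other organs. Ccl7, a monocyte attractant, was higher by log2 3.25 ± 0.49 (adjusted p = 9.6e-04), with skin 2 within the tail range. Complement genes moved both ways, with 3 of 23 higher and 3 lower. Factor B (Cfb) rose by log2 3.73 ± 0.58 (adjusted p = 0.0012) and C1ra by 2.55 ± 0.39 (adjusted p = 9.5e-04). The central component C3 was lower by log2 -3.28 ± 0.51 (adjusted p = 0.0011), although both kidney arrays lay below tail.

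Cell cycle genes had a relative median of -1.29, on the same side under 35 settings, although only Bub1 of 28 was called lower and 0 higher by limma (18 lower and 0 higher at an unadjusted p under 0.05). Mki67, the proliferation marker, read 3.28, 3.01 and 3.05 in tail, against 2.09, 4.64 and 5.39, and its difference of -1.16 ± 0.41 did not pass (adjusted p = 0.13). On the 13 low-background arrays, which lack tail 2 and kidney, normexp and quantile normalization gave 19 lower of 27. Bub1, a spindle checkpoint kinase, was lower by log2 -1.40 ± 0.31 (adjusted p = 0.015), and lost the call when any 1 tail array was left out. Contractile genes had 0 of 15 higher and 2 lower (relative median -0.42), namely Myh11, the smooth muscle myosin, and Des, the muscle filament desmin. Both lost the call when any 1 tail array was left out or with scaling to the median of detected probes, and heart 2 and heart 3 lay below tail for both.

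The label was also checked against fibroblast markers and those of other cells. Of 20 fibroblast genes 3 were higher (Ly6a, Cd34 and Lox) and 2 lower (Nt5e and Fap, 1 when any 1 tail array was left out), and all 20 were well above background on at least 1 tail array. Ly6a, the surface protein Sca-1, read 7.02, 6.88 and 7.21 in tail, against -1.37, 3.23 and 5.09 (log2 4.19 ± 0.67, adjusted p = 0.0015). Cd34, a sialomucin of progenitors and some fibroblasts, was higher by log2 3.23 ± 0.47 (adjusted p = 7.8e-04), both without overlap. Lox, which cross-links collagen, rose by log2 2.35 ± 0.47 (adjusted p = 0.0066), a call lost without tail 3. Nt5e, the ectonucleotidase CD73, was lower by log2 -2.45 ± 0.41 (adjusted p = 0.0020).

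Mesothelial genes had 0 of 13 higher and 10 lower (7, 9 and 6 lower without tail 1, 2 or 3) and a relative median of -3.90. The summed linear signal of this list was 11.7 to 13.3 on the tail arrays and 12.98 to 164.1 on the others, the lowest being skin 1. Lrrn4, Bnc1, Gpm6a and Podxl were not well above background on any tail array. Lrrn4, a membrane protein of mesothelium, read -6.61, -4.57 and -6.52 in tail, against -6.41, -0.91 and 2.73, and was at least 15.3-fold lower (adjusted p = 6.7e-04). The list shares Wt1, Bnc1, Krt8, Rspo1 and Aldh1a2 with other lists described here, so those lower calls are counted in more than 1 list. The part of mesothelial cells in the other organs' cultures was not tested.

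Endothelial genes had 1 of 19 higher and 6 lower (relative median -2.05), with summed signals of 18.8 to 21.5 in tail and 17.6 to 413 elsewhere. Plvap, a protein of endothelial pores, read -3.29, -2.91 and -2.39 in tail, against -2.21, 0.56 and 5.58 (log2 -4.03 ± 0.54, adjusted p = 3.9e-04). Tek, the angiopoietin receptor and named after its values were seen, was the higher member, at 0.08, 0.16 and 0.11 in tail, against -4.52, -1.92 and -0.02 (log2 2.32 ± 0.45, adjusted p = 0.0056). Simple epithelial genes had 0 of 15 higher and 4 lower, including the keratins Krt8 and Krt18 (log2 -4.26 ± 0.80 and -4.64 ± 0.63), for both of which heart 3 lay below tail. The lower count was 2, 3 and 2 without tail 1, 2 or 3. Keratinocyte genes had 0 of 25 higher and 3 lower, and their summed signal was 11.7 to 15.1 in tail and 15.99 to 91.8 in the others. Krt14, the basal keratin, read -3.31, -2.37 and -3.69 in tail, against -4.60, -2.54 and 3.10, the highest being skin 2.

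Macrophage genes had 0 of 14 called in either direction by limma (relative median -0.71), and 0 higher and 0 lower at an unadjusted p under 0.05. Skeletal muscle genes had 1 of 23 higher (4.35%, near the all-gene 4.08%), Pax3, and 0 lower. Myf6, Myog, Pax7 and Mylpf were not well above background on any tail array. Pax3, a regulator of muscle and neural crest precursors, read -0.20, -0.01 and 0.05 in tail, against -5.16, -2.74 and -0.60 (log2 2.33 ± 0.49, adjusted p = 0.010), a call lost when any 1 tail array was left out. Schwann and melanocyte genes had 2 of 16 higher: Mitf, the melanocyte regulator also used elsewhere, by log2 2.71 ± 0.41 (adjusted p = 9.0e-04) and S100b by 3.10 ± 0.59 (adjusted p = 0.0051), with gonad 1 above all tail arrays for S100b. The defining neural crest factor Sox10 was well above background on 1 tail array only. Where a list of other cells had 0 calls on a side, an unadjusted p under 0.05 by limma gave 2 higher mesothelial, 1 higher simple epithelial, 2 higher keratinocyte, 1 lower muscle and 2 lower Schwann and melanocyte genes. Adipocyte genes had 2 of 14 higher, Car3 and Cebpa (log2 3.31 ± 0.41, adjusted p = 2.0e-04), a transcription factor of fat cells, and their summed signal was 45.0 to 75.01 in tail and 6.88 to 33.2 in the others. Adiponectin (Adipoq) did not pass (log2 1.41, adjusted p = 0.64). The part of fat cells in the level of Car3 was not tested.

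Skin is the other surface tissue in the series. Tested against skin alone, Hoxb13 was higher by log2 9.50 (adjusted p = 7.7e-04), Thbs4 by 10.07 (adjusted p = 0.0013), Car3 by 8.93 (adjusted p = 0.0020) and Igfbp4 by 5.73 (adjusted p = 0.0013). Plac8 was lower by -6.44 (adjusted p = 5.4e-04) and Il6 by -5.16 (adjusted p = 0.0024). These rest on 2 skin arrays. Hoxb13, Thbs4, Car3 and Plac8 were chosen as genes whose tail arrays all lay beyond all others, skin included. Their tests against skin are thus largely set by the selection and are no separate check. Igfbp4 and Il6 were also chosen from these same arrays. Among other genes named above, Prg4, Tnmd, Hoxc11 and Hoxa11 did not pass against skin alone.

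Called genes also lay next to each other in the genome. By the gene order of RefSeq's GRCm38.p6 table, 15 runs of at least 3 neighbouring measured genes were all called higher, with 49 genes in all, and 0 runs were all lower. Over all genes 4.08% were called higher and 2.19% lower, and the number of runs these shares would give was not tested. One run held the proteoglycan genes Ecm2, Aspn and Omd, and another the homeobox genes Irx3, Irx5 and Irx6 with the noncoding Crnde between them. For Ecm2 heart 2 and heart 3 lay above all tail arrays, and for Omd heart 3 and skin 1 lay within the tail range. Irx3, a regulator of limb and heart patterning, read 0.87, 1.21 and 1.82 in tail, against -4.89, -2.22 and 1.41 (log2 3.41 ± 0.34, adjusted p = 4.0e-05), and skin 2 lay within the tail range. Further runs were Hoxa10, Hoxa11 and Hoxa11os, and the immune genes H2-DMb1, Psmb9, Tap1 and Psmb8, which make and load peptides for antigen display. For Psmb9, Tap1 and Psmb8 heart 2 and heart 3 lay above all tail arrays. The genes of these runs that follow no naming rule were chosen after their values were seen, and neighbouring genes can share probes or transcripts, so the runs are a description.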

How the data were processed

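Per the labels, RNA (0.1 µg) was labelled with Cy3 and run on 1-colour Agilent arrays. Per the file headers, Feature Extraction 11.0.1.1 made the authors' deposited values from a design of 62976 spots annotated on mm9. The main value is the processed spot intensity, background-subtracted and not normalized between arrays. The deposited raw and background intensity are pixel medians, and the deposited flags are another unit (0 or 1) for outliers and spots above background. The authors' deposited value table equals the raw median intensity on 18 arrays and was used as an alternative only, also for lung 2.

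Of 55681 biological probes 27235 had a gene symbol, for 20660 genes. The 4493 outlier spots were set to missing. Log2 intensity was then scaled by subtracting the array's own 75th percentile. Each gene was represented by its brightest complete probe, well above background on at least 2 arrays, which left 19721 genes and removed 939. A linear model of 7 organ means over 18 arrays, with 11 residual degrees of freedom, was fitted by limma 3.58.1 (R 4.3.3), with Benjamini-Hochberg adjustment over all genes. Tables were made in Python 3.11.15 using pandas 2.3.3 and numpy 2.4.6, and figures in matplotlib 3.10.9. In data simulated for this comparison, 13, 28, 38 and 42 of 50 genes were recovered at log2 shifts of 1.5, 2, 3 and 4. There were 11 false calls among those of the 19721 genes that were not shifted. The simulated noise was independent between arrays, without organ differences or arrays of raised background, so 11 is no estimate for the real arrays. The depth of an array is read as its share of probes well above background.

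The gene lists and comparisons were chosen with earlier results of these data known. Named are the 20 largest higher and 12 largest lower called genes in which all tail arrays lie beyond all others (no predicted or clone names), up to 4 called members with the largest change of each list, the tail markers and Hox groups 9 to 13. Other genes were named after their values were seen, among them uncalled members of the lists, Tcf21, Mkx, Col6a1, Col6a3 and Hlx. The labels do not say that a replicate number marks a shared animal, so the fit has no block. Of 46 same-number pairs 13 correlated above 0.1, but different-number pairs were not set beside them, so this does not exclude pairing. Some genes counted in the lists are not reported here by name.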

Additional observations from a re-analysis of the deposited data

Results flagged for a closer look

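Probes without a gene symbol were outside the comparisons above. Of 26206 such probes, 171 were higher in tail (0.653%) and 124 lower by the same fit, and 15 were higher than in each of the 6 organs, which is what drew attention to them. They include 2 probes for Hotair, the noncoding RNA of the Hoxc cluster (labelled HOTAIR on the array). Of its 5 probes 4 were called higher, with log2 differences from 3.86 to 5.27. For the called probe with a difference of 3.92, kidney 2 read -1.485, above all tail arrays, of which the highest read -1.501. The probe with the greatest difference read -0.68, -0.72 and -1.03 in tail, against -7.58, -6.59 and -3.41 as the lowest, median and highest of the other arrays (adjusted p = 5.3e-04). The fifth had a difference of 2.30 that did not pass (adjusted p = 0.23).

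A region on mouse chromosome 7 (mm9, 91558475 to 91733625, forward side of the design) had 6 probes, of which 5 were called, with log2 differences from 4.63 to 5.35. One of them read 5.04, 4.90 and 4.89 in tail, against -3.56, -0.42 and 1.87 elsewhere, with skin 2 the closest. A region on chromosome X (mm9, 50407969 to 50410370, reverse side) had 3 probes higher than in each organ, with differences from 3.03 to 3.44. The genes at these regions are not given by the sources used here.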

How the results depend on the processing

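The comparison as reported called 805 genes higher and 432 lower, 81 higher and 24 lower than each organ, and 0 genes were called in the opposite direction under any setting. Scaling to the median of detected probes gave 3483 and 194 (94.7% higher, against 65.1%), and 47 and 4 against each organ. Quantile normalization gave 663 lower and 57 lower than each organ, and normexp with quantile normalization 138 and 50 against each organ. Without the 5 high-background arrays, and thus with 2 tail arrays and 5 other organs, 3217 were higher and 1027 lower (75.8% higher), with 258 and 214 against each organ. The same arrays with normexp gave 784 higher and 840 lower (48.3% higher), with 253 and 166, and 597 and 376 of the main calls were among them. Without tail 2 normexp gave 37 lower than each organ. The deposited value table gave 140 higher than each organ. A minimum log2 change of 2 gave 365 and 256, and pooling all other arrays 197 and 85. Chosen after seeing the data were the dark control signal as a covariate, with 1457 and 822 (193 and 96 against each organ), and leaving out both kidney arrays, with 556 and 441 (55.8% higher). The causes were not tested.

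Leaving out single arrays gave 347 (without tail 1) to 1276 (without heart 1) higher and 195 (without tail 1) to 717 (without heart 1) lower genes. Against each organ it gave 26 (without skin 2) to 153 (without heart 1) higher and 6 (without skin 2) to 69 (without heart 1) lower. Without tail 2 and tail 3 the calls were 450 and 295, and 375 and 223. The counts against each organ also fell by over 1.5 times without skin 1 (27 and 8), tail 1 (41 and 10), tail 3 (46 and 13) and lung 1 (40 and 14), and the higher count without lung 3 (39). Of 120 called genes named by the rule, 28, 18 and 26 lost the call without tail 1, 2 and 3, and 0 changed direction under any setting. With all other arrays pooled, 71 of these genes lost the call, the most under any setting.

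With the replicate number as a block 667 genes were higher and 379 lower, with 66 and 21 against each organ. Same-number correlations with tail arrays ran from -0.68 to 0.61, which does not settle whether the numbers mark pairs. The slide block gave 687 and 369. Setting saturated spots to missing was not needed, since 0 spots were saturated. Depth limits the genes near background: 65 of the 432 lower genes were not well above background on any tail array.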
